A study of Mus musculus with 4 samples.

Results

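The genes described here are those that cells switch on, or use as brakes, when FGF signals through the ERK kinase cascade: the phosphatase gene Dusp6, the Sprouty genes Spry1, Spry2 and Spry4, the Spred genes Spred1 and Spred2, the ETS transcription factor genes Etv1, Etv4 and Etv5, and Il17rd. Every probe set that the platform annotation assigns to exactly 1 of these 10 genes was taken, which gave 28 of the 45101 probe sets on the array and covered 9 genes. Etv1 had 0 such probe sets, because the 3 that name it are shared with a second gene, and it has no values here. Of the 28 probe sets, 24 were bright enough to be tested (mean log2 signal at or above the 40th percentile), with at least 1 for each of the 9 genes.

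The tissue was the autopod, the tip of the limb bud from which wrist and digits (or ankle and toes) develop, taken from C57BL/6 mouse embryos at stage E11.25. The Hox13dKO group held 2 samples. Its embryos carried no functional Hoxa13 copy (Hoxa13-/-) and were also homozygous for HoxDdel, which removes Hoxd11, Hoxd12 and Hoxd13 together. The wild-type group held 2 samples. Each sample was hybridised to 1 Affymetrix array, whose values are signals of the MAS5 method on a linear scale, called units here, and fore- and hindlimb pieces cut to the Hoxd13 expression domain were combined, so a value averages both limbs and all cell types of the piece. In such pieces fewer cells of a type and less RNA per cell cannot be told apart. Samples within a group are titled biological replicates, and the number of embryos behind a sample is not known here.

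In the limb bud, FGFs from the apical ectodermal ridge, the thickened epithelium at the tip, and from the mesenchyme beneath it bind receptor tyrosine kinases and drive outgrowth through Ras, Raf, MEK and ERK. Active ERK raises transcription of Etv4 and Etv5, which pass the signal on to target genes, and of a set of inhibitors that limit it. Dusp6 removes the activating phosphates from ERK, Sprouty and Spred proteins act at the level of Ras and Raf, and Il17rd, also called Sef, is a membrane protein that dampens the pathway. Levels of these genes are therefore widely used as readouts of FGF signalling in the limb.

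Upstream sequence is shown for the 2 genes with the highest differences and for the gene with the lowest difference among those in the table of RefSeq promoter sequences (build GRCm38.p6), so that the elements near their start sites can be seen beside the values. Each run is the 250 bases before the transcription start, written 5′ to 3′ on the strand of the gene, and capitals mark AGGAAG or its reverse complement, a motif that factors of the Etv4 family are known to bind.
Dusp6, chr10:99262981-99263230, plus strand: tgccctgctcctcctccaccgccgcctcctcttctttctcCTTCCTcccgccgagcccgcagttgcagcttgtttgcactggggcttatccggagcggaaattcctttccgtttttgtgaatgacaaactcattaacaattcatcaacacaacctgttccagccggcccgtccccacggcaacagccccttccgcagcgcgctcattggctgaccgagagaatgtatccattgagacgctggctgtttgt
Spry1, chr3:37639697-37639946, plus strand: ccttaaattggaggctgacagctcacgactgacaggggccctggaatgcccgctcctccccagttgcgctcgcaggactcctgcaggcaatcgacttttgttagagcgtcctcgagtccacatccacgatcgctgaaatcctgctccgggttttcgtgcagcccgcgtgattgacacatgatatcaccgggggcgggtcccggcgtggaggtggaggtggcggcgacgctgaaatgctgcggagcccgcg
Etv5, chr16:22439571-22439820, minus strand: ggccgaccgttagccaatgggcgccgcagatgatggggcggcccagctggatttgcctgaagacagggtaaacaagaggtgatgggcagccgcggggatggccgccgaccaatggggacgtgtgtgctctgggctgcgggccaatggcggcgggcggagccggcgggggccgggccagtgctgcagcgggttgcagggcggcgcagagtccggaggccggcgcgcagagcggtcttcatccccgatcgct

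Of the 10 listed genes, 8 matched the promoter table by symbol, with 10 windows in all, because Etv1 and Etv5 have 2 start sites each. The outer of the Etv5 start sites is the one printed. AGGAAG, searched on both strands, occurred in 3 of the 10 windows, with 1 match in Dusp6 at 210 bases before the start, 2 in Spred2 and 1 in Etv1, against 29.5% of the 32851 windows in the table. The shorter ETS core GGAA, which AGGAAG contains, occurred in 9 of the 10 windows and in 93.4% of all windows. Its only absence was from the outer Etv5 window, while the window of the other Etv5 start site held 4 matches. A match describes these letters only, and the windows were not chosen for any measured binding.

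The targeted genes were checked first. Hoxd13 signals were 5.79 and 9.58 units in Hox13dKO and 14540.4 and 16117 units in wild type, and each of the 4 targeted genes was lower in Hox13dKO at an adjusted p of at most 0.00778 (limma). The median signal was 66.1 and 81.2 units on the Hox13dKO arrays, against 65.8 and 85.7 units on the wild-type arrays. Log2 signals over the tested probe sets correlated across genes at r = 0.962 between the Hox13dKO arrays, at 0.958 between the wild-type arrays, and at 0.951 to 0.962 across groups, so arrays of 1 group were about as far apart as arrays of different groups. The ratio of the 5′ to the 3′ actin control was 0.728 and 0.771 on the Hox13dKO arrays, against 0.473 and 0.764 on the wild-type arrays, the low one being wild-type replicate 1. For the Gapdh control that array was not low: the ratio was 1.17 and 1.16 on the Hox13dKO arrays, against 1.23 and 1.25 on the wild-type arrays. Signals of the limb mesenchyme genes Prrx1, Twist1, Msx1 and Lhx9 were at least 2341 units on every array. These were picked, after their values were seen, from the 10 limb mesenchyme markers described further on.

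None of the FGF response and feedback genes passed the test in the autopod without Hoxa13 and Hoxd11 to Hoxd13. Of the 24 tested probe sets, 0 had an adjusted p under 0.05 (limma over all 27022 probe sets tested, of which 0.207% passed), and 2 had an unadjusted p under 0.05, where the share over all probe sets was 6.26%. The lowest adjusted p was 0.652. Taking the brightest probe set of each gene, the log2 difference, Hox13dKO minus wild type, ran from -0.48 for Etv4 to 0.38 for Dusp6. It was above 0 in 5 genes (Dusp6, Spry1, Il17rd, Spred2 and, by 0.01 and not after median centring, Spred1) and below 0 in 4 (Spry2, Etv5, Spry4 and Etv4), while 45.8% of all genes had a difference above 0. The median over the 9 genes was 0.01, beside -0.03 over all 13072 genes tested in the same way. The median size without regard to sign was 0.26 over the 9 genes and 0.18 over all genes. Inhibitor genes stood on both sides of 0 and both ETS factor genes below it. Among the 24 tested probe sets 4 had both Hox13dKO arrays above both wild-type arrays and 3 had both below, where the shares over all probe sets tested were 16.3% and 18.3%.

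**Figure D1:**
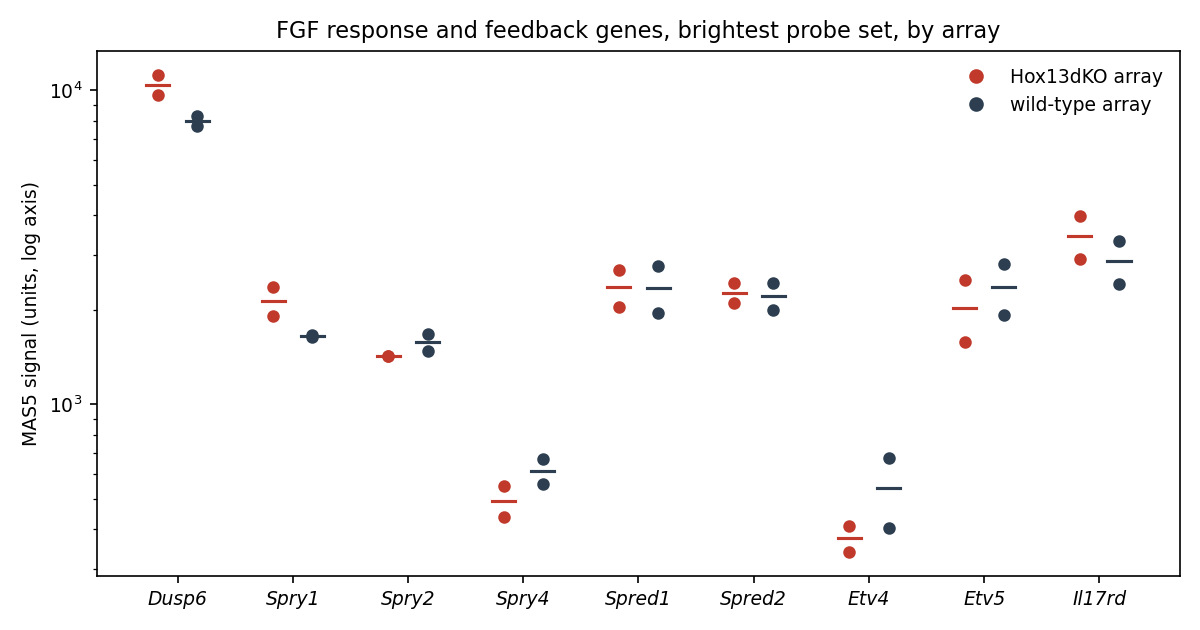
MAS5 signal (units, log axis) of the brightest probe set of each of the 9 genes, with the 2 Hox13dKO arrays (red) to the left of the 2 wild-type arrays (dark) and a bar at each group mean. The groups are apart for Dusp6 and Spry1 (Hox13dKO above) and for Spry2 and Spry4 (Hox13dKO below), and overlap for the other five.

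Dusp6, the phosphatase that acts on ERK itself, had signals of 11229.5 and 9649 units in Hox13dKO, against 8319.7 and 7693 units in wild type. Both Hox13dKO arrays lay above both wild-type arrays. Its 1 probe set averaged 10439 ± 1118 units in Hox13dKO and 8006 ± 443 units in wild type (SD, n = 2 each), a log2 difference of 0.38 ± 0.14 (SE), or 1.30-fold. The 95% interval of the fit, not adjusted for the number of genes, ran from 0.07 to 0.69, so that a rise above 1.62-fold lay outside it. The adjusted p was 0.652, and at this spread a difference of 1.94-fold would have been needed to reach the smallest moderated t among the probe sets that passed. Over all genes tested, 17.1% had both Hox13dKO arrays above both wild-type arrays and 20.1% had both below, beside 2 genes each among the 9 described here.

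Spry1, a Sprouty inhibitor of Ras signalling, was the other gene with both Hox13dKO arrays above. Its signals were 1907 and 2358 units in Hox13dKO and 1639 and 1665 units in wild type. The wild-type arrays were close together and the Hox13dKO arrays less so. The log2 difference was 0.36 ± 0.16 (SE), or 1.28-fold, with an interval from 0.0029 to 0.72 and an adjusted p of 0.793. With Hox13dKO replicate 1 left out it was 0.51 and with Hox13dKO replicate 2 left out 0.21.

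Spry2, the Sprouty gene most often used as an FGF readout beside Spry4, had signals of 1423 and 1431 units in Hox13dKO and 1679 and 1485 units in wild type. The Hox13dKO arrays agreed closely and lay just below the lower wild-type array. The log2 difference was -0.15 ± 0.15 (SE; adjusted p = 0.949), and the interval, from -0.48 to 0.19, left out a fall beyond 1.40-fold. A dim second probe set of Spry2 read 50.5 and 94.1 units in Hox13dKO and 56.1 and 48.3 units in wild type. There the groups overlapped and the interval was wide, from -0.96 to 1.77.

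Spry4 was below 0 by each of its 4 tested probe sets. The brightest had signals of 550.0 and 438 units in Hox13dKO, against 669.7 and 558 units in wild type, and the next 403 and 489.7 units in Hox13dKO, against 622 and 554 units in wild type. In both, the Hox13dKO arrays lay below both wild-type arrays, though for the brightest the nearer pair was almost level. The log2 differences were -0.32 ± 0.21 and -0.40 ± 0.21 (SE), with adjusted p of 0.911 and 0.872. The other two probe sets overlapped between groups. One read 94.6 and 134 units in Hox13dKO and 105 and 171 units in wild type, and the other 7.98 and 80.0 units in Hox13dKO and 76.7 and 67.1 units in wild type. Probe sets of a gene measure the same RNA on the same arrays, so their shared direction is not 4 independent observations. Sprouty genes were thus split, with Spry1 above 0 and Spry2 and Spry4 below 0 by their brightest probe sets; whether the 3 genes differ from each other was not tested.

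Spred1 and Spred2 encode membrane-bound relatives of Sprouty that keep Raf from being activated. The brightest Spred1 probe set read 2683 and 2046 units in Hox13dKO and 2753 and 1955 units in wild type. In each group 1 array was high and 1 low, and the group means were nearly equal, at 2365 ± 450.2 units in Hox13dKO and 2354 ± 565 units in wild type (SD, n = 2 each). Its log2 difference was 0.01 ± 0.20 (SE), with an interval from -0.46 to 0.48. Of the 6 tested Spred1 probe sets 5 were above 0, the highest at 0.27 ± 0.25, and all 6 overlapped between groups.

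The brightest Spred2 probe set read 2443 and 2103 units in Hox13dKO and 2436 and 2004 units in wild type, again with overlapping groups. The log2 difference was 0.04 ± 0.16 (SE), and the interval from -0.33 to 0.40 was among the narrower of the 9. Another Spred2 probe set had the largest positive difference of all 24, 1.07 ± 0.55, from 244 and 203 units in Hox13dKO against 58.2 and 195 units in wild type. That difference rested on wild-type replicate 1: it was 0.19 without that array, and 1.94 (adjusted p = 0.0201) without wild-type replicate 2, and 0.0201 was the lowest adjusted p over its alternative settings, the highest being 0.9996. The other tested Spred2 probe sets, at -0.29 ± 0.55 and 0.07 ± 0.94, were dim and overlapped between groups.

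Il17rd, the membrane inhibitor, had signals of 3990.2 and 2896 units in Hox13dKO and 3317 and 2413 units in wild type. The higher wild-type array lay between the Hox13dKO arrays. The log2 difference was 0.26 ± 0.21 (SE; adjusted p = 0.929), with an interval from -0.21 to 0.74. Its second, dimmer probe set read 148 and 278 units in Hox13dKO and 141 and 125 units in wild type. There the groups did not overlap, but 1 Hox13dKO array was nearly level with the higher wild-type array, and the difference of 0.61 ± 0.39 did not pass (adjusted p = 0.907).

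The ETS factor genes, which are activated by ERK and carry the signal to the genome, were both below 0 and neither passed. Etv4 had signals of 339.6 and 412 units in Hox13dKO, against 675 and 405 units in wild type. One wild-type array, replicate 1, was well above the other three, which were close together. The log2 difference was -0.48 ± 0.28 (SE; adjusted p = 0.895); leaving out wild-type replicate 1 brought it to -0.12, and leaving out wild-type replicate 2 to -0.85. The interval ran from -1.13 to 0.16, the only one among the 9 genes that took in a 2-fold fall.

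Etv5 was below 0 by each of its 3 probe sets. The brightest read 2493 and 1578 units in Hox13dKO and 2803 and 1934 units in wild type, a log2 difference of -0.23 ± 0.25 (SE) with overlapping groups. A second read 632 and 461 units in Hox13dKO and 803 and 629 units in wild type (-0.40 ± 0.23), and the dimmest 478 and 569.8 units in Hox13dKO and 517 and 659.8 units in wild type (-0.16 ± 0.21). These overlapped as well, and adjusted p was between 0.894 and 0.968 for the 3 probe sets. The array that was higher of a pair was not the same for the brightest and the dimmest probe sets, although both report on Etv5.

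**Figure D2:**
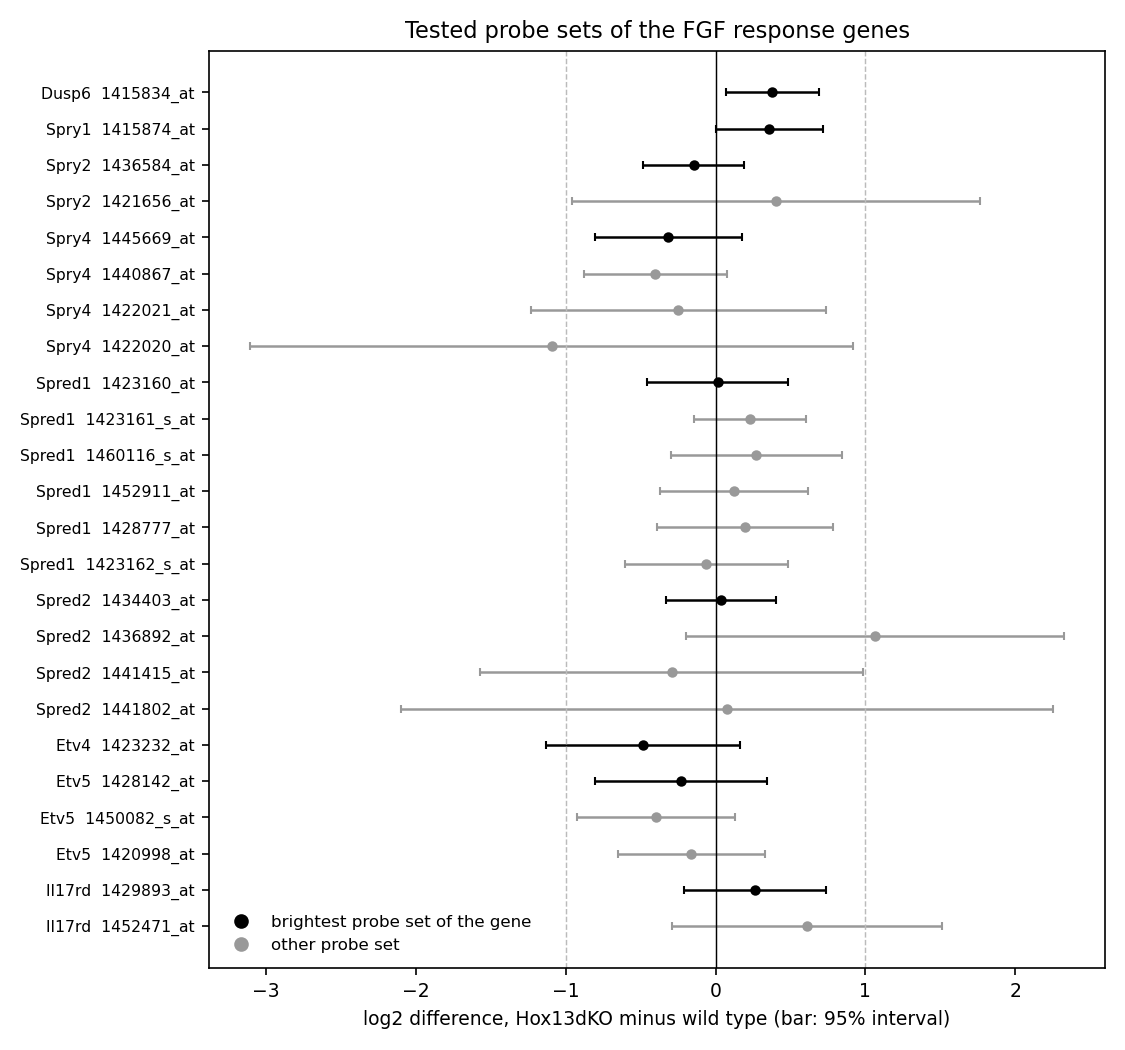
Log2 difference, Hox13dKO minus wild type, with its 95% interval for the 24 tested probe sets, black for the brightest of a gene and grey for the others; dashed lines mark a 2-fold change either way. The black intervals lie within the dashed lines for every gene but Etv4, and the grey ones are wide where the probe set is dim.

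For 8 of the 9 genes the interval of the brightest probe set lay within a 2-fold change in either direction, and for Dusp6 and Spry1 it left out 0. These intervals cover 1 gene at a time, and with 2 arrays a group they lean on the spread shared across the array. Differences of 1.94-fold (Dusp6) to 3.96-fold (Etv4) would have been needed to reach the smallest moderated t called in this fit. With each array left out in turn, 6 of the 9 genes stayed on their side of 0: Dusp6, Spry1 and Il17rd above, Spry2, Spry4 and Etv4 below. Spred1, Spred2 and Etv5 took both signs.

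**Figure D3:**
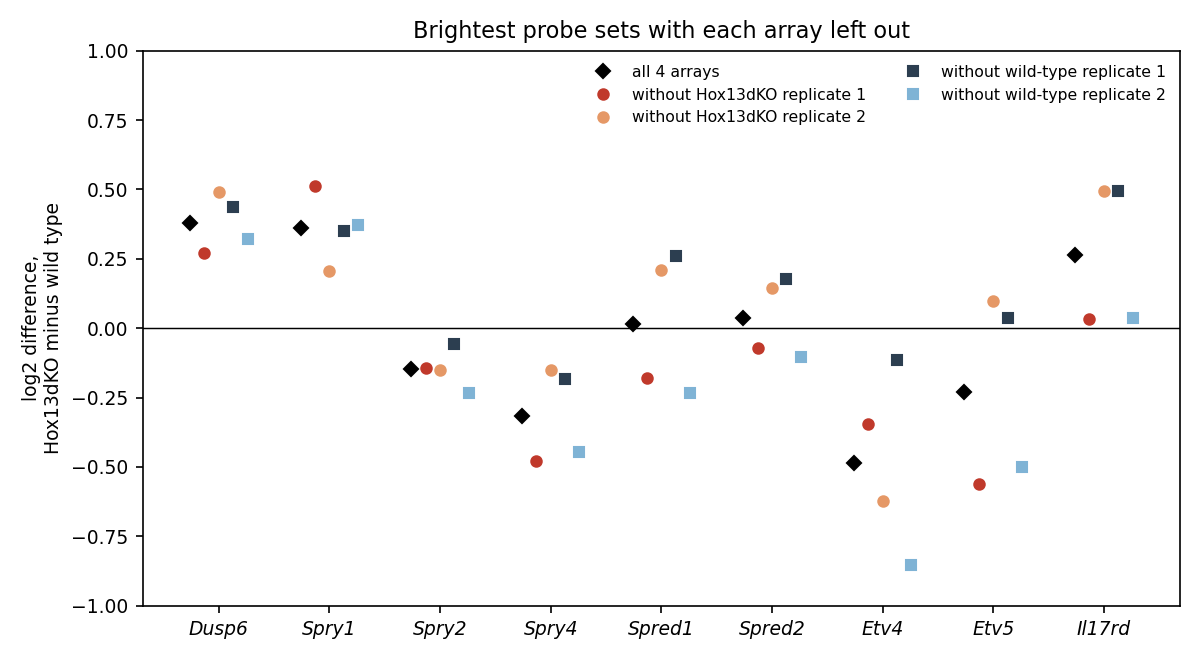
Log2 difference, Hox13dKO minus wild type, of the brightest probe set of each gene with all 4 arrays (black diamonds) and with each array left out (coloured points). Dusp6 stays between 0.27 and 0.49 and Spry1 between 0.21 and 0.51, whereas Etv5 runs from -0.56 to 0.10 and Spred1 from -0.23 to 0.26.

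The 4 probe sets too dim to be tested belong to Spred1, Spred2 and Etv4 and did not exceed 109 units on any array. One of Spred1 read 21.5 and 12.7 units in Hox13dKO and 103 and 50.1 units in wild type, another 0.700 and 4.00 units in Hox13dKO and 30.8 and 8.55 units in wild type. One of Spred2 read 13.3 and 22.4 units in Hox13dKO and 54.7 and 109 units in wild type. In these 3 both Hox13dKO arrays lay below both wild-type arrays, while the brightest probe sets of the same genes overlapped between groups. How often probe sets too dim to be tested lie apart in this way was not counted, so nothing about Spred1 or Spred2 is drawn from it. Without the filter on dim probe sets the log2 differences of these 3 were -2.05, -0.56 and -2.12, with adjusted p of 0.652, 0.824 and 0.643 (limma). Several of these signals are below the floor of 14.1 units, to which lower signals were raised before the fit, and none is shown to be above background. The dim Etv4 probe set read 19.3 and 40.2 units in Hox13dKO and 19.5 and 33.9 units in wild type.

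Other genes of the pathway were compared by fixed lists, to set the response genes beside the steps that feed them. Among the ligands 0 of 11 tested genes passed and 3 had an unadjusted p under 0.05 in limma, with a median log2 difference of 0.08. Over all 13072 genes 0.306% passed and 7.25% had an unadjusted p under 0.05. Fgf8, the main ridge FGF, had signals of 870.4 and 1301 units in Hox13dKO and 604 and 592 units in wild type (0.83 ± 0.22 SE, adjusted p = 0.336). Fgf4, a ridge FGF that sustains outgrowth, had signals of 215 and 196 units in Hox13dKO and 46.1 and 76.9 units in wild type (1.79 ± 0.43, adjusted p = 0.275). That probe set is one marked for cross-hybridisation. Of the other tested Fgf4 probe sets, one was at 2.14 ± 0.57, with both Hox13dKO arrays above both wild-type arrays. The other was at 0.72 ± 0.99, and there the groups overlapped. Like Fgf8 and Fgf4 by their brightest probe sets, Fgf9, Fgf17 and Fgf18 had both Hox13dKO arrays above both wild-type arrays, at 0.68, 0.76 and 1.47. In 5 of the 11 tested ligands both Hox13dKO arrays were thus above and in 1 both below. The shares over all genes were 17.1% and 20.1%. Fgf18 had the lowest p of the list, with signals of 339 and 343 units in Hox13dKO and 127 and 119.9 units in wild type (adjusted p = 0.142). Fgf10, the mesenchymal FGF that maintains the ridge, overlapped at 0.08 ± 0.45. The other tested ligands were below 0 by their brightest probe sets. Fgf22 was at -1.42 with both Hox13dKO arrays below both wild-type arrays. Fgf23, Fgf1, Fgf7 and Fgf3 lay between -0.46 and -0.23 from dim, overlapping signals. A second dim Fgf1 probe set went the other way, at 0.45 ± 0.65, with both Hox13dKO arrays above both wild-type arrays. By brightest probe sets the ligand list thus had 6 genes above 0 and 5 below, and none passed. A difference between the ligands and the response genes was not tested.

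Of 5 tested receptor genes 0 passed (1 at an unadjusted p under 0.05), with a median of 0.23. Fgfr1, the receptor of the mesenchyme, had signals of 2686 and 2314 units in Hox13dKO and 2001 and 1611 units in wild type (0.47 ± 0.16 SE, adjusted p = 0.611); its other probe sets were at 0.25 and -0.08. Fgfr2, whose epithelial form serves the ridge, was at -0.06 ± 0.22. The other three were Fgfrl1, a receptor with no kinase (-0.20), Fgfr3 (0.27) and Fgfr4 (0.23). Among adaptors and Ras genes 0 of 10 tested passed (2 at an unadjusted p under 0.05 in limma, median -0.10). The lowest p were those of Shc1 (0.50 ± 0.19), Frs3 (-0.73 ± 0.31) and Ptpn11 (-0.22 ± 0.14). Dimmer probe sets of Ptpn11 were above 0, at 0.81 and 0.71. Among 5 tested genes of the ERK cascade 0 passed (1 at an unadjusted p under 0.05, median -0.01). Map2k1, which encodes the kinase that activates ERK, was at 0.37 ± 0.14 with both Hox13dKO arrays above. By their brightest probe sets Map2k2, Braf, Araf and Ksr1 lay between -0.13 and 0.01. Other tested probe sets of Map2k2, Braf and Araf lay on both sides of 0, from -0.52 (Araf) to 0.87 (Braf), with Map2k2 at 0.78.

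Of 17 tested feedback regulators outside the 10 genes 0 passed (2 at an unadjusted p under 0.05), 12 were above 0 and the median was 0.26. Dusp7, a close relative of Dusp6, was at 0.59 ± 0.18 (SE), from 1398 and 1144 units in Hox13dKO and 922 and 769.9 units in wild type, and its other probe sets were at 0.24 and 0.27. Dusp5, a nuclear ERK phosphatase, was at 1.74 ± 0.68 from dim signals, and Cbl, which tags receptors for breakdown, at -0.38 ± 0.17. Among 15 other ETS factors and common ERK readouts 0 passed (2 at an unadjusted p under 0.05, median 0.05). Bhlhe40, a repressor gene, was at 2.81 ± 0.65, Myc at 0.64 ± 0.26 and Ets1 at -0.45 ± 0.20. Of 9 tested genes for heparan sulfate, the glycan that FGFs need to bind their receptors, 1 passed and was lower (median 0.02). It was Sulf1, the sulfatase that trims heparan sulfate and is known to weaken FGF signalling. Its signals were 212 and 387 units in Hox13dKO and 1350.3 and 1960 units in wild type, a log2 difference of -2.50 ± 0.31 (adjusted p = 0.0343). With Hox13dKO replicate 1 left out Sulf1 was at -2.07 and no longer passed (adjusted p = 0.104), and over its alternative settings adjusted p ranged from 5.7e-07 to 0.591. Sulf2, its close relative, was at 0.05 ± 0.12. Gpc3, a heparan sulfate proteoglycan of the cell surface, had signals of 11843 and 13432 units in Hox13dKO and 6408 and 10054 units in wild type (0.65 ± 0.21, adjusted p = 0.550), and with Sulf1 was 1 of the 2 genes of the list at an unadjusted p under 0.05. Glce, an enzyme of heparan sulfate synthesis, was at 0.31 ± 0.18 (adjusted p = 0.896).

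**Figure D4:**
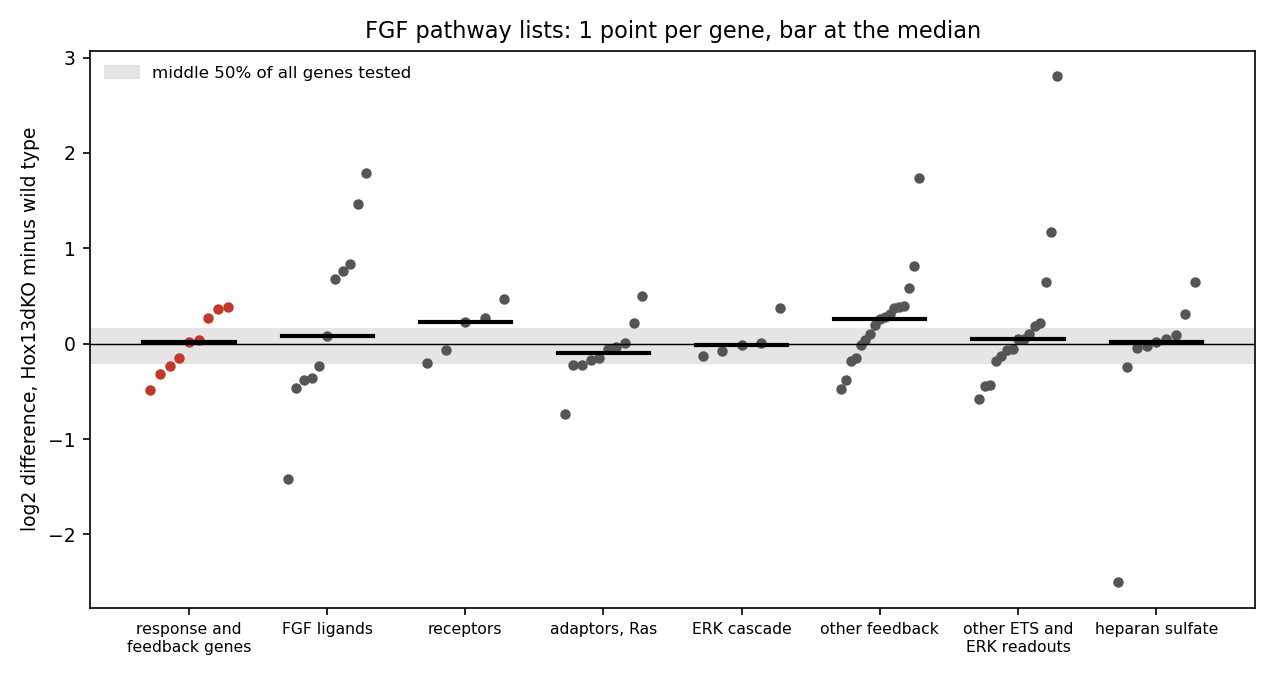
Log2 difference, Hox13dKO minus wild type, of the brightest tested probe set of each gene in the FGF pathway lists, with a bar at each list's median and a grey band for the middle 50% of all genes tested. The 9 response and feedback genes (red) lie between -0.48 and 0.38, the ligands between -1.42 and 1.79, and the lowest point in the figure is Sulf1 at -2.50.

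Since ridge and mesenchyme both express response genes, markers of the cell types in the piece were read as well. Of 14 tested ridge and ectoderm markers 0 passed, and 6 had an unadjusted p under 0.05 in limma, beside 7.25% of all genes. In 8 both Hox13dKO arrays were above and in 4 both below, where the shares over all genes were 17.1% and 20.1%. Among the 8 are Fgf8, Fgf4, Fgf9 and Fgf17, which are also in the ligand list, so the counts of the lists are not separate observations. The 14 markers ran from -0.75 to 1.79, with 9 above 0 and 5 below, Fgf4 having the lowest p. Their summed signal was 8697 and 10694 units in Hox13dKO and 6822 and 7349.7 units in wild type. Bmp4, which the mesenchyme also expresses, made up a large part of it, with 3317 and 4578 units in Hox13dKO and 2138 and 2587 units in wild type. Of 11 surface epithelium markers 0 passed (2 at an unadjusted p under 0.05 in limma, the lowest that of Krt8 at -0.61). Of the 11, 7 were above 0 and 4 below, with a median of 0.24. The epithelium sums overlapped, at 9633 and 12073 units in Hox13dKO and 10093 and 8977 units in wild type.

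Of 9 endothelial markers 0 passed (3 at an unadjusted p under 0.05), although all 9 were above 0, with Cdh5 lowest in p at 0.77. Their sums were 4484 and 5406 units in Hox13dKO and 3895 and 4151 units in wild type. Of 8 muscle markers 1 passed, Actc1, a muscle actin (3.76 ± 0.41 SE, adjusted p = 0.0182, but 0.119 without Hox13dKO replicate 2, and 8.0e-09 to 0.591 over its alternative settings), and 5 had an unadjusted p under 0.05. Of the 8 muscle markers 6 were above 0 and 2 below, the lowest at -1.16. The muscle sums were 1955 and 3889 units in Hox13dKO and 803 and 774 units in wild type. Ridge, endothelial and muscle marker sums were thus higher in both Hox13dKO arrays, as Dusp6 and Spry1 were and Spry2 and Spry4 were not, and their part in the values of these genes was not tested. Of 10 limb mesenchyme markers 0 passed (3 at an unadjusted p under 0.05 in limma, the lowest that of Tbx5 at 1.02). Of the 10, 4 were above 0 and 6 below, with a median of -0.11. The mesenchyme sums overlapped, at 34767 and 32093 units in Hox13dKO and 34109.8 and 33663 units in wild type. The remaining marker lists, of red cells (5 tested), macrophages (7) and nerve and glia (3), had 0 past the threshold each, with 2, 0 and 1 at an unadjusted p under 0.05. Their lowest p were those of Alas2 (1.13), Tyrobp (0.57) and Tubb3 (-1.29).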

How the data were processed

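The authors deposited 1 intensity value per probe set and array, on a linear scale, made with MAS5 per the submitters' processing notes (its version is unknown here). That method corrects for background and brings arrays to a common scale, and the 2% trimmed mean was 500.003 units on all 4 arrays. Detection calls and scanner files were not used here, so background is not known per probe set, and the number of arrays limits the precision. The 64 control probe sets were left out. Signals under 14.1 units, the 20th percentile of all values, were set to that floor before the log2 step. Tested were probe sets at or above the 40th percentile in mean log2 signal, which is a geometric mean of 39.6 units, with limma 3.58.1 in R 4.3.3 (eBayes with an intensity trend, two-sided, Benjamini-Hochberg over all tested, threshold 0.05). An exact permutation test of 2 arrays against 2 cannot go below p = 0.333. Each gene is represented by its brightest probe set. The rest are given for the FGF response and feedback genes and for a few other genes. Elsewhere they are left out and can differ in size or sign. A limma p-value sets the group difference against the spread between these samples, moderated by the spread shared across probe sets.

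The 10 genes and all lists were chosen with earlier results of these data known, so they are described by counts and medians without a test of the list. All 10 are named, with the targeted genes, Fgf4, Fgf8, Fgf9, Fgf10, Fgfr1, Fgfr2 and Sulf1, the 3 genes of lowest p in each pathway list, the gene of lowest p in each marker list, and all members where a list or count has 5 or fewer. Fgf17 and the ligands below 0, Map2k2, Sulf2, Bmp4 and the mesenchyme genes of the tissue check were named after their values were seen. Alternatives were median centring, quantile normalization, no floor, a pseudocount of 16 units instead of it, testing every probe set or only those from the 60th percentile up, robust eBayes, eBayes without the trend, the replicate number as a block, each array left out, 1 probe set per gene, leaving out probe sets marked for cross-hybridisation, an adjusted p of 0.10 and other ways to combine probe sets. The fit was tested on simulated data. Figures were drawn with matplotlib 3.10.9.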

Additional observations from a re-analysis of the deposited data

How the results depend on the processing

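Limits first: 2 arrays a group without detection calls leave dim probe sets unbounded, and the count of all probe sets passing, 56 of 27022, depends strongly on the fit. It was 0 with no filter (3159 at an unadjusted p under 0.05 there), 1 without the intensity trend, 418 with the replicate block, 95 with 1 probe set per gene and 111 at an adjusted p of 0.10, and 11 to 525 with each array left out, a fit that gives the group with 1 array the spread of the other group; the cause was not tested. The targeted genes, Sulf1 and Actc1 were not past the threshold with no filter, nor, Hoxd13 aside, without the trend. The 24 tested probe sets of the response genes gave 360 values over the alternatives, of which 337 kept direction and side of the threshold. Settings that change only the filter, the eBayes options, the replicate block or the probe sets fitted leave a difference as it was. Its direction could not turn there, so those values are no sign of stability. Of the reversed values 19 came with an array left out and 2 with other settings. With the replicate block 1 probe set and 1 gene of the list passed, Dusp6 (adjusted p = 0.0424; the highest over its alternatives was 0.963), and with wild-type replicate 2 left out 1 probe set of Spred2 did; with each other array left out, 0 did. Replicate numbers are shared between groups only as numbers: deviations of same-numbered arrays from their group means correlated across probe sets at r = 0.198, and 2 pairs cannot show a pairing. The median over the 9 genes ran from -0.23 to 0.18 with each array left out.

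Signs turned as follows, and the cause was not tested. After median centring the brightest Spred1 probe set was at -0.013, and with a pseudocount a dim Spred2 probe set was at -0.068. With each array left out, the brightest probe sets ran from -0.23 to 0.26 for Spred1, from -0.10 to 0.18 for Spred2 and from -0.56 to 0.099 for Etv5. Other probe sets that took both signs were 1 of Spry2 (-0.044 to 0.85), 2 of Spry4 (-0.60 to 0.11 and -2.35 to 0.16), 3 of Spred1 (-0.043 to 0.29, -0.12 to 0.51 and -0.23 to 0.11), 2 of Spred2 (-0.60 to 0.017 and -1.27 to 1.42) and 1 of Etv5 (-0.34 to 0.013).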
